A study of Mus musculus with 6 samples.

Results

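RNA immunoprecipitation followed by sequencing (RIP-seq) recovers the RNAs that travel with a protein when it is pulled out of a cell lysate with an antibody. Here the antibody was against YTHDF1, the lysate came from granule cells (GCs) of the cerebellum of wildtype C57BL/6 mice, and the RNA recovered was compared with RNA of the unselected lysate (input). The comparison rests on 4 of the 6 libraries of the series, 2 from input (replicates 1 and 2) and 2 from the YTHDF1 RIP (replicates 1 and 2), all from postnatal day 8 per the labels. The other 2 libraries, made with an antibody against YTHDF2 from the same kind of cells, entered the model to estimate the spread and are compared only at the end. No library carried a gene deletion or a drug treatment. A control pull-down with an unrelated antibody was not analysed here, so RNA held by the beads or by any antibody cannot be told apart from RNA held by YTHDF1. Nothing in the labels says that replicates came from separate animals, so each p-value is set against differences among these libraries that may be technical in origin. Every gene of the table was a member if its mean over the 4 libraries reached 1 FPKM (a count of fragments divided by transcript length and by the mapped fragments in that library). This left 10639 of 52550 gene IDs, and 9482 of them were nuclear protein-coding genes.

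YTHDF1 is a cytoplasmic protein whose YTH domain binds N6-methyladenosine (m6A), a methylated form of adenosine that is found mostly in mRNA, near the stop codon and in long internal exons. Such proteins are called m6A readers, and YTHDF1 has been linked to the translation of the mRNAs it binds. GCs are the small excitatory neurons of the cerebellum, and in the postnatal mouse they leave the cell cycle, extend parallel fibers and form synapses on Purkinje cells.

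The 4 libraries reached 1 FPKM for 9503 to 10910 genes each. The top 10 genes by FPKM made up 79.4% to 85.3% of each library's sum. Mitochondrially encoded genes held 18.4% and 17.99% of the sum in input replicates 1 and 2 but only 0.607% and 3.68% in YTHDF1 RIP replicates 1 and 2. The input replicates lay closer together than the RIP replicates: between replicates, 296 of the tested genes differed by more than 1 on the log2(FPKM + 1) scale in the input and 2050 did so in the YTHDF1 RIP. The Pearson correlation across genes, which are not independent replicates, was 0.946 and 0.796.

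A gene was called when limma, a linear model with a shared estimate of the spread, gave a Benjamini-Hochberg adjusted p under 0.05 for the difference in log2(FPKM + 1) between YTHDF1 RIP and input. By this test 114 genes were higher in the YTHDF1 RIP, which is 1.07% of the tested genes, and 309 were lower, which is 2.9%. Together these were 423 genes, or 3.98%. Among nuclear protein-coding genes, 99 were higher (1.04%) and 183 lower (1.93%). Genes under 1 FPKM in both libraries of a group had their direction fixed by the filter on the mean. Without them 9497 tested genes were left, of which 88 were called higher and 222 lower. The adjusted p-values of the called genes all lay between 0.0257 and 0.0499, close under the threshold. At an unadjusted p under 0.05, 1386 genes were higher (13%) and 1576 lower (14.8%). The calls depended on having both libraries of each group. Without input replicate 1 only 12 genes were called, without input replicate 2 only 2, without YTHDF1 RIP replicate 1 only 1, and without YTHDF1 RIP replicate 2 none, although 1274, 1293, 1994 and 3002 genes had an unadjusted p under 0.05 in those 4 fits.

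A count that needs no model (the model-free count below) was also made. In 959 genes (9.01%) the lower of the YTHDF1 RIP libraries was at least 2 times the higher input library, and in 1140 genes (10.7%) the lower input library was at least 2 times the higher RIP library. All 114 genes called higher and all 309 called lower were among them, so groups that do not overlap add nothing to a call. Over all tested genes, both RIP libraries lay above both inputs in 32.4% and below both in 32.1%. An exact permutation test of 2 against 2 libraries cannot go below p = 0.333 and was not run. The ratio of group means, RIP over input, was above 2 for 2340 genes (22%) and under 0.5 for 2187 (20.6%). Taken pair by pair, 555 genes were more than 1 higher on the log2 scale in both replicate pairs and 822 more than 1 lower in both, while 67 moved by more than 1 in opposite directions. The change was of the same sign in both pairs for 71.2% of genes.

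**Figure D1:**
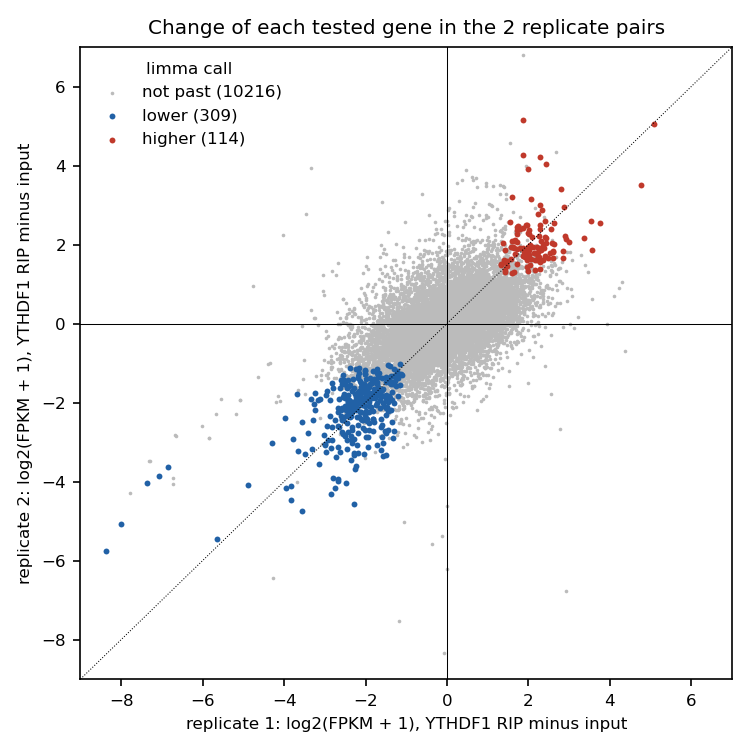
Each point is 1 of the 10639 tested genes; the axes give the difference in log2(FPKM + 1) between YTHDF1 RIP and input in replicate pair 1 (horizontal) and pair 2 (vertical), and the dotted line marks equal change. The 114 genes called higher (red) and the 309 called lower (blue) lie away from 0 in both pairs, and 67 genes lie beyond 1 in opposite directions.

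Short coding stretches are shown to let the base composition of transcripts that rose and fell be read beside the results on G and C content. From each of the 4 largest rises and the 4 largest falls, leaving out mitochondrial genes and the histone gene described below, the 90 coding bases whose content of G and C came closest to that of the whole transcript, so that they only illustrate it, are given 5′ to 3′ in the sense of the mRNA. Capitals mark G and C.
Zbtb22: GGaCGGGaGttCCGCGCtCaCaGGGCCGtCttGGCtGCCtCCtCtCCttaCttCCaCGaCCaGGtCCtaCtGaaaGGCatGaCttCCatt
Rnf26: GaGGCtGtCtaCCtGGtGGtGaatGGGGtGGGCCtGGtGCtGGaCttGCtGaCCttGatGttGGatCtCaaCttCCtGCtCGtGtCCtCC
Lingo1: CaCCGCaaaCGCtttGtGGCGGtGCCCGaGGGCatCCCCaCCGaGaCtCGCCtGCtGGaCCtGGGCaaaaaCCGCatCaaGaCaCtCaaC
Rgmb: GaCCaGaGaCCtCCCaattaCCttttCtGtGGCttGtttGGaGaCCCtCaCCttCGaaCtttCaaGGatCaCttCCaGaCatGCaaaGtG
Rwdd1: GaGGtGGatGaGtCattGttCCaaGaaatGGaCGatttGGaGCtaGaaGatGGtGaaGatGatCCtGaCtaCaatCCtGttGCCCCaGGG
Pin4: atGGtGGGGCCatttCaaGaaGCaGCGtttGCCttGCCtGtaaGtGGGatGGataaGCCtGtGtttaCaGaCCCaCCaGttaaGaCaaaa
Hmgb3: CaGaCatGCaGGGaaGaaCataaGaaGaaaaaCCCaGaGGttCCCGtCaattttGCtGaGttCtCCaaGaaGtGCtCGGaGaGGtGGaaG
Hmgn5: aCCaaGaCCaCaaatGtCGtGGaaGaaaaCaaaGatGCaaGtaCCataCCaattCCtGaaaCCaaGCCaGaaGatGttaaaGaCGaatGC
The stretches come from GENCODE transcripts on GRCm38, each within 1 exon, at chr17:33917075-33917164 on the plus strand for Zbtb22, chr9:44112857-44112946 on the minus strand for Rnf26, chr9:56621061-56621150 on the minus strand for Lingo1 and chr17:15820766-15820855 on the minus strand for Rgmb. Those of the falls lie at chr10:33996745-33996834 on the minus strand for Rwdd1, chrX:102127523-102127612 on the plus strand for Pin4, chrX:71558118-71558207 on the plus strand for Hmgb3 and chrX:109008204-109008293 on the minus strand for Hmgn5. The whole transcripts held 59.4%, 57.8%, 62.1% and 47.7% G and C for Zbtb22, Rnf26, Lingo1 and Rgmb, and 47.8%, 47.4%, 47.3% and 40.7% for Rwdd1, Pin4, Hmgb3 and Hmgn5. Zbtb22, Rnf26 and Lingo1 were thus richer in G and C than each of these falls, and Rgmb was not.

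The largest rise of a protein-coding gene was that of Hist2h2aa1, which encodes a core histone H2A. It measured 2.71 and 3.38 FPKM in input replicates 1 and 2 and 126 and 145 FPKM in the YTHDF1 RIP, a log2 change of 5.08 ± 0.49 (SE, limma adjusted p = 0.0261). This gene has a near-identical neighbour, Hist2h2aa2, which was listed at 0 FPKM in both input libraries and at 2.65 and 111 FPKM in the RIP. How reads were divided between the copies is not known. Of the 63 tested replication-dependent histone genes Hist2h2aa1 was the only one called, and the median change of the list was 0.02 against 0.01 for all tested genes.

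Zbtb22, a gene of the BTB zinc finger family of transcription factors, followed. It stood at 0.408 and 0.296 FPKM in input replicates 1 and 2 and at 37.4 and 13.7 FPKM in the RIP, 72.6 times the input mean, with a log2 change of 4.14 ± 0.54 (adjusted p = 0.0287, limma). Both RIP libraries lay more than 30-fold above both inputs, by a ratio of 33.6 between the nearest libraries, yet they differed from each other by more than the inputs did. Rnf26, a RING finger gene of the endoplasmic reticulum, measured 4.32 and 0.134 FPKM in input and 24.8 and 20.1 FPKM in the RIP. Its inputs disagreed, and the nearest libraries of the groups were 4.64-fold apart. Tmem121, which encodes a membrane protein, measured 0.389 and 0.462 FPKM in input and 15.1 and 7.86 FPKM in the RIP (log2 change 3.07 ± 0.44, limma adjusted p = 0.0296).

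The gene lists below were made for this comparison, but axon guidance, Wnt and mTOR signaling are topics that the study drew from these same libraries, so counts for those lists are no independent evidence of their direction. The filter on the mean also bears on these lists. Of all tested genes, 725 lay under 1 FPKM in both inputs and passed only through the RIP, so they had to be higher there, and 417 passed only through the input. Lists with several such members are therefore described without them. Leaving them out of all tested genes left 9497 with a median of -0.03, with 88 called higher and 222 lower. Of these 9497, 624 passed the model-free count upward and 877 downward, and the model-free counts of lists without such members stand beside these. The 26 called genes that passed only through the RIP include Zbtb22, Tmem121, Tgif2, Kcnj12, Zfp280b, Tigd3, Gm26566 and Gm26165. Called genes that passed only through the input include Mir8104 and Snord21, and without all such genes the lower calls went from 309 to 222. Each count of calls below stands beside 1.07% of all tested genes called higher and 2.9% called lower. A single call in a list is therefore no result about the list. Counts at an unadjusted p under 0.05 stand beside 13% of all tested genes higher and 14.8% lower. Counts from the fit with the replicate number as a block (the replicate block) stand beside 14.6% of all tested genes called.

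The first list holds genes for cell surface proteins that carry leucine-rich repeats, a fold used in contacts between neurons. Of 32 tested members 7 passed the filter only through the RIP, and none of those was called. Among the other 25, 4 were higher and none lower, the median log2 change was 0.76 (0.96 over all 32), and 8 had both RIP libraries at least 2 times both inputs. Lingo1, a partner of the Nogo receptor that restrains myelination and axon growth, measured 4.08 and 5.23 FPKM in input replicates 1 and 2 and 67.9 and 35.5 FPKM in the RIP (log2 change 3.16 ± 0.50, limma adjusted p = 0.0319). Lrfn1, a synaptic adhesion molecule that binds PSD-95, rose from 1.98 and 3.27 FPKM to 29.8 and 18.1 FPKM (2.77 ± 0.43). Its relative Lrfn4 rose from 1.15 and 1.18 FPKM to 15.2 and 8.60 FPKM (2.53 ± 0.41). In all of these the RIP replicate 1 value was the higher of its pair. No RIP library overlapped an input library, as in every called gene. Lrrc4b, also called NGL-3, which encodes a postsynaptic adhesion protein, showed the widest gap between its RIP libraries, with 6.78 and 7.37 FPKM in input and 90.7 and 29.5 FPKM in the RIP (2.71 ± 0.58, limma adjusted p = 0.0493).

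Among 25 tested axon guidance ligands, 7 were called higher and none lower. Without 3 members that passed the filter only through the RIP, of which 1 was called, the median log2 change was 0.92 and 10 of 22 passed the model-free count. Rgmb, a repulsive guidance molecule that also acts as a co-receptor for bone morphogenetic proteins, stood at 3.64 and 2.95 FPKM in input replicates 1 and 2 and at 31.3 and 41.0 FPKM in the RIP (3.11 ± 0.41, limma adjusted p = 0.0287). The other 6 were netrin 1 (Ntn1), a secreted attractant of commissural axons, and 5 semaphorins, which are mostly repulsive cues. Of the semaphorins, Sema4b measured 2.15 and 2.54 FPKM in input and 17.2 and 11.2 FPKM in the RIP. Sema4f measured 1.90 and 1.56 FPKM in input and 8.59 and 13.0 FPKM in the RIP, and Sema4c 4.31 and 3.81 FPKM and 21.8 and 17.6 FPKM. Their log2 changes were 2.16, 2.09 and 2.03, and the groups did not overlap in any of them, as in every called gene. Among 24 tested guidance receptors, the semaphorin receptor Plxna3 was the only call (1.64 ± 0.35), from 2.13 and 2.27 FPKM to 7.34 and 10.9 FPKM. Of the receptors 5 passed the filter only through the RIP, and the other 19 had a median of 0.82 (0.95 over all 24), with 6 past the model-free count.

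Planar cell polarity genes, which orient cells within a sheet of tissue and take part in axon tract formation, had the highest median of the surface lists, 1.16 over 13 tested members. All 13 changes were above 0, 3 were called higher and none lower. Dchs1, a giant protocadherin, measured 2.92 and 4.07 FPKM in input replicates 1 and 2 and 28.4 and 22.6 FPKM in the RIP (2.56 ± 0.40, limma adjusted p = 0.0319). Celsr2, a cadherin with several membrane passes, measured 8.80 and 9.73 FPKM in input and 47.5 and 44.8 FPKM in the RIP (2.2 ± 0.41). Celsr1 measured 0.814 and 1.15 FPKM in input and 6.08 and 4.76 FPKM in the RIP (1.69 ± 0.33). The third member, Celsr3, had both RIP libraries above both inputs, as did 32.4% of all tested genes. It measured 11.7 and 18.9 FPKM in the RIP against 1.14 and 3.62 FPKM in input, but missed the threshold (2.34 ± 0.53, limma adjusted p = 0.0548). It passed with the replicate number as a block, at an adjusted p of 0.00534, and over all alternative settings its adjusted p ranged from 0.00534 to 0.386.

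In the Wnt pathway, calls fell on a receptor and on components inside the cell. Of 17 tested ligands and receptors, 1 was higher and none lower, but 9 of the 17 passed the filter only through the RIP. The other 8 had a median of 0.44 (0.76 over all 17), and 2 of them passed the model-free count upward and 1 downward. The called receptor was Fzd1, at 3.05 and 3.41 FPKM in input replicates 1 and 2 and 16.3 and 19.2 FPKM in the RIP (2.14 ± 0.39, limma adjusted p = 0.0376). Of 20 tested transducers, 3 were higher and none lower (median 0.35). Csnk1d, a casein kinase 1 isoform that phosphorylates Dishevelled, measured 6.42 and 5.88 FPKM in input and 38.1 and 40.8 FPKM in the RIP (2.5 ± 0.40). Bcl9l, a co-activator for beta-catenin, measured 1.97 and 2.08 FPKM in input and 13.8 and 10.2 FPKM in the RIP (2.09 ± 0.40). Apc2, a neuronal relative of the tumour suppressor APC, measured 3.38 and 4.88 FPKM in input and 22.4 and 18.3 FPKM in the RIP (2.07 ± 0.44). The RIP replicates of Csnk1d and Bcl9l lay close together in comparison with the step from input.

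Dvl1, a Dishevelled protein that relays Wnt signals, and the ligand Wnt5a are the Wnt components the study followed. It treated Dvl1 as a target of YTHDF1 and Wnt5a as a target of YTHDF2, so a YTHDF1 RIP does not test the latter. Dvl1 measured 0.825 and 1.03 FPKM in input replicates 1 and 2 and 3.99 and 3.94 FPKM in the YTHDF1 RIP. Its groups were clearly apart, but on the log2(FPKM + 1) scale, which understates low genes, the change was 1.36 with a limma adjusted p of 0.0543. With the replicate number as a block the adjusted p was 0.0236, and it ranged from 0.0236 to 0.483 over the alternatives. Wnt5a measured 0.811 and 0.849 FPKM in input and 1.29 and 2.67 FPKM in the RIP (log2 change 0.66, limma adjusted p = 0.326), a difference that was smaller than the gap between its own RIP libraries. With both inputs under 1 FPKM, Wnt5a passed the filter only through the RIP and had to be higher there.

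Of the remaining lists of surface and synaptic genes, Notch genes had 1 of 20 tested members higher and none lower, with a median of 0.64 without the 5 that passed the filter only through the RIP. It was Notch2, a receptor, at 1.96 and 2.78 FPKM in input and 9.97 and 12.7 FPKM in the RIP (1.88 ± 0.38). Neurexins, neuroligins and adhesion G protein-coupled receptors had 1 of 14 higher and none lower (median 1.00), the postsynaptic adhesion gene Nlgn3, at 3.86 and 4.87 FPKM in input and 17.2 and 18.8 FPKM in the RIP (1.83 ± 0.39). None of the 10 tested Hedgehog genes passed limma, with 6 higher at an unadjusted p under 0.05 and 3 past with the replicate block (median 1.14 without the 1 member that passed the filter only through the RIP). Hedgehog signals drive division of GC precursors, and the proto-oncogene Mycn, the member with the highest mean over the 4 libraries, measured 9.16 and 2.05 FPKM in input replicates 1 and 2 and 34.2 and 15.8 FPKM in the RIP (2.13, limma adjusted p = 0.102, 0.0124 with the replicate block, 0.0124 to 0.508 over the alternatives). Its higher input library was within 2-fold of its lower RIP library. Bsn, which encodes the giant active zone scaffold Bassoon, was the 1 call among 31 tested presynaptic genes, at 1.91 and 1.93 FPKM in input and 10.5 and 15.5 FPKM in the RIP (2.24 ± 0.45), while the median of that list was -0.26.

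**Figure D2:**
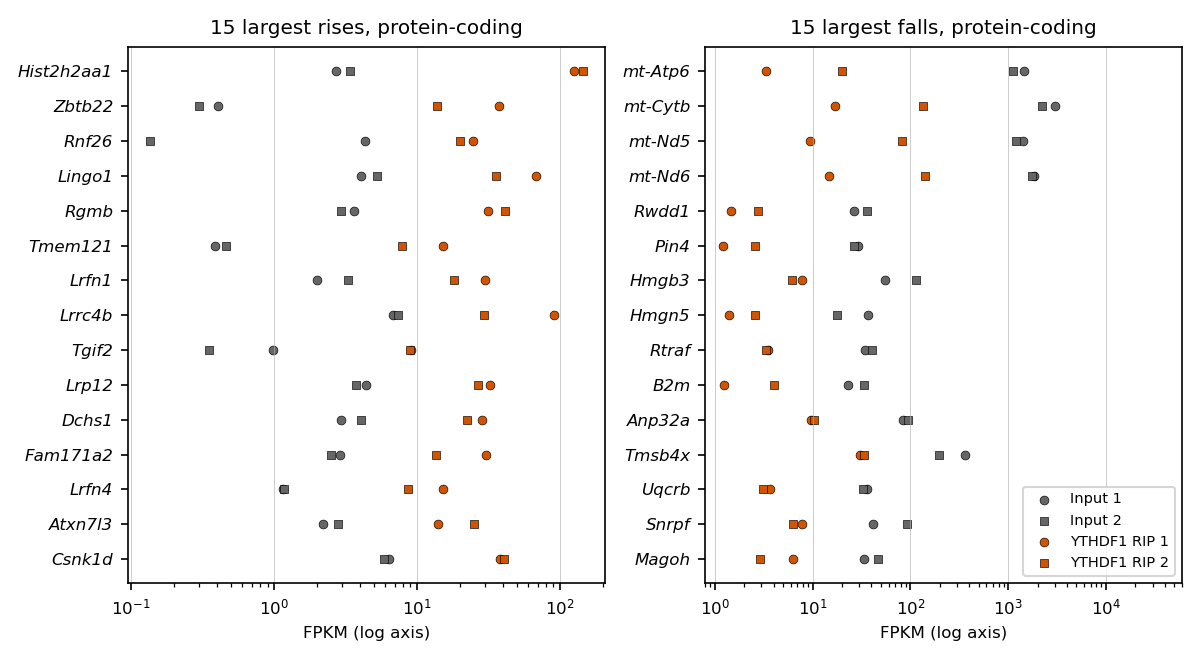
FPKM on a log axis in the 2 input libraries (grey) and the 2 YTHDF1 RIP libraries (orange) for the 15 protein-coding genes with the largest rise (left) and the largest fall (right) among the called genes; circles are replicate 1 and squares replicate 2. No RIP library overlaps an input library of the same gene, as in every called gene. The RIP replicates of the mitochondrial genes lie far apart, as for mt-Atp6 at 3.36 and 19.9 FPKM.

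**Figure D3:**
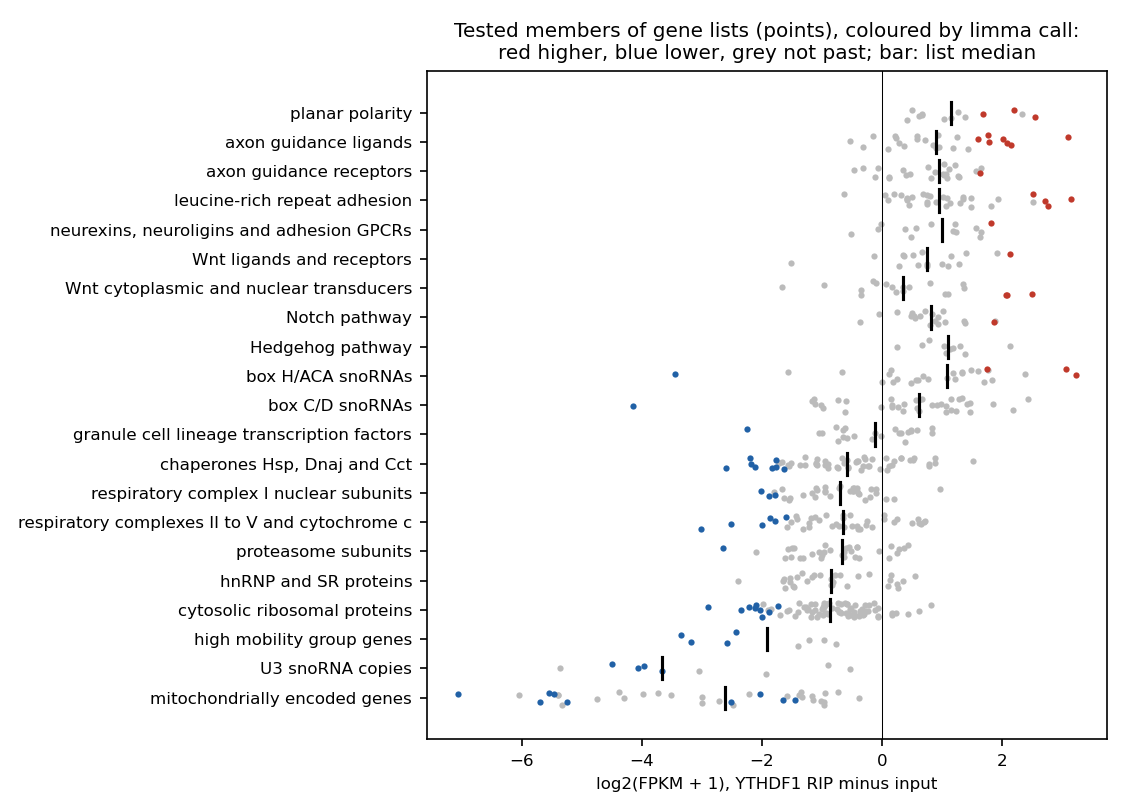
Each point is a tested member of a gene list, placed by its difference in log2(FPKM + 1) between YTHDF1 RIP and input and coloured by its limma call (red higher, blue lower, grey not past); the black bar is the list median over all tested members. Medians run from 1.16 for planar polarity genes to -3.67 for U3 copies, and called genes of the surface lists are all higher while those of the machinery lists shown are all lower.

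Several called rises belonged to none of the pathways above. Lrp12, a receptor of the low-density lipoprotein receptor family, measured 4.38 and 3.76 FPKM in input and 32.3 and 26.6 FPKM in the RIP (2.58 ± 0.39). Tgif2, a homeodomain repressor, measured 0.991 and 0.349 FPKM in input and 9.05 and 8.92 FPKM in the RIP (2.61 ± 0.43), and Klf13, a Kruppel-like factor, 5.38 and 6.07 FPKM and 30.2 and 35.97 FPKM (2.34 ± 0.46). Fam171a2 (2.53), Atxn7l3 (2.5), a subunit of a histone deubiquitinase module, and the orphan receptor Gpr162 (2.48) were also called. Of 261 tested zinc finger genes named Zfp, 3 were higher and none lower (median 0.23), with Zfp41 at 2.24, Zfp280b at 1.97 and Zfp687 at 1.96, and the share of higher calls was near the 1.07% of all genes. In the 229 that passed the filter through both groups 2 were higher (median 0.21). Gm26566 and Tigd3 were named for the distance between the groups: Gm26566 measured 0.0866 and 0.0357 FPKM in input and 2.65 and 4.74 FPKM in the RIP, and Tigd3 0.570 and 0.422 FPKM and 5.501 and 4.61 FPKM. The zinc transporter Slc39a3, named by the same rule, measured 0.871 and 0.772 FPKM in input and 7.54 and 6.08 FPKM in the RIP and missed the threshold (limma adjusted p = 0.0577, 0.0112 with the replicate block, 0.0112 to 0.335 over the alternatives). Slc39a3 also passed the filter only through the RIP, so its direction was fixed.

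RNA encoded by the mitochondrial genome lay far below input in the YTHDF1 RIP. YTHDF1 is cytoplasmic, and transcripts of the mitochondrial matrix are separated from it by membranes in the intact cell, but the RIP was made from lysate. The tested mitochondrially encoded genes also had a median G and C content of 35.5%. The part of either in the difference was not tested. All 36 tested mitochondrially encoded genes had a change at or below 0, 9 were called lower and none higher, and the median was -2.61. Without 3 that passed the filter only through the input, 7 of 33 were lower and the median was -2.99. mt-Atp6, a subunit of ATP synthase, stood at 1443 and 1135 FPKM in input replicates 1 and 2 and at 3.36 and 19.9 FPKM in the RIP (-7.07 ± 0.90, limma adjusted p = 0.0287). The complex III gene mt-Cytb measured 2983 and 2228 FPKM in input and 17.2 and 135 FPKM in the RIP, and the complex I gene mt-Nd5 1406 and 1213 FPKM and 9.52 and 82.1 FPKM. The small ribosomal RNA mt-Rnr1 fell from 82738 and 101741 FPKM to 1653 and 2330 FPKM (-5.55 ± 1.09, limma adjusted p = 0.0431). For these 3 mt-mRNAs RIP replicate 2 was several times higher than RIP replicate 1, and the change of mt-Cytb (-5.69 ± 1.19) passed at a limma adjusted p of 0.0472.

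Among the other nuclear protein-coding genes called lower, those with the largest change follow. Rwdd1 measured 26.8 and 36.4 FPKM in input replicates 1 and 2 and 1.47 and 2.79 FPKM in the YTHDF1 RIP (-3.40 ± 0.50, limma adjusted p = 0.0307). Pin4, a parvulin-type prolyl isomerase, measured 29.3 and 26.5 FPKM in input and 1.23 and 2.61 FPKM in the RIP (-3.35 ± 0.47). Rtraf, a subunit of the tRNA ligase complex, measured 34.0 and 40.8 FPKM in input and 3.49 and 3.37 FPKM in the RIP, and its replicates lay close together (-3.11 ± 0.35). B2m, the light chain of class I major histocompatibility molecules, measured 22.8 and 33.7 FPKM in input and 1.25 and 4.06 FPKM in the RIP (-3.09 ± 0.52). Tmsb4x, which encodes the actin-sequestering peptide thymosin beta 4, fell from 366 and 195 FPKM to 30.4 and 33.9 FPKM (-3.02 ± 0.50). The splicing factor Snrpf (-2.97), the exon junction subunit Magoh (-2.93) and the acidic nuclear phosphoprotein Anp32a (-3.03) fell by similar amounts, and in each the higher RIP library lay more than 5-fold below the lower input library.

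High mobility group genes encode abundant DNA-bending and nucleosome-binding proteins. Of 8 tested members 4 were called lower and none higher, all 8 changes were below 0, and the median was -1.91. Hmgb3 measured 55.4 and 113 FPKM in input replicates 1 and 2 and 7.76 and 6.15 FPKM in the RIP (-3.34 ± 0.47, limma adjusted p = 0.0287). Hmgb1 measured 101 and 95.5 FPKM in input and 18.003 and 13.5 FPKM in the RIP (-2.58 ± 0.43). Hmgn5, a nucleosome-binding protein with a long acidic tail, fell from 36.7 and 17.7 FPKM to 1.41 and 2.55 FPKM (-3.18 ± 0.57), and Hmgb2 from 74.4 and 132 FPKM to 25.5 and 12.2 FPKM (-2.42 ± 0.52).

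Of 82 tested cytosolic ribosomal protein genes, 9 were lower and none higher (median -0.86), and the strongest were Rpl17, from 247 and 212 FPKM in input to 37.8 and 23.3 FPKM in the RIP (-2.90 ± 0.47), and Rpl21 (-2.35), Rpl12 (-2.21) and Rps27l (-2.11). The changes of 6 of the 82 were above 0, and none of those passed. Of 57 tested chaperone genes, 8 were lower and none higher (median -0.57). In the 53 that passed the filter through both groups 6 were lower (median -0.56). The calls included the cytosolic Hsp90aa1 (-2.12), Hsp90b1 of the endoplasmic reticulum (-2.2) and the mitochondrial chaperonin Hspd1 (-2.18). Hspd1 measured 28.4 and 29.7 FPKM in input and 4.53 and 6.99 FPKM in the RIP. Proteasome genes had 1 of 33 lower, or 3.03% against 2.9% of all tested genes, and none higher (median -0.66). The call was the core subunit Psma4 at 17.1 and 25.2 FPKM in input and 2.92 and 2.12 FPKM in the RIP (-2.64 ± 0.37). Of 71 tested mitochondrial ribosomal protein genes none passed limma (median -0.36). At an unadjusted p under 0.05, 17 were lower and 1 higher, where 14.8% and 13% of all tested genes were. With the replicate block 7 passed, where 14.6% of all tested genes did. In the 66 that passed the filter through both groups the median was -0.33.

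Nuclear-encoded genes of oxidative phosphorylation come next. Of 37 complex I genes, 3 were lower and none higher (median -0.70), Ndufv2 (-2.01), Ndufb4 (-1.89) and Ndufs5 (-1.78). In the 34 that passed the filter through both groups the median was -0.61. Of 41 genes of complexes II to V and cytochrome c, 6 were lower and none higher (median -0.65). Uqcrb, a subunit of complex III, measured 35.8 and 32.9 FPKM in input replicates 1 and 2 and 3.64 and 3.09 FPKM in the RIP (-3.02 ± 0.35, limma adjusted p = 0.0261). Cytochrome c (Cycs) measured 13.0 and 14.5 FPKM in input and 1.78 and 1.39 FPKM in the RIP (-2.51 ± 0.33). In both genes the gap between replicates was small beside the distance between the groups.

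None of 30 tested hnRNP and SR protein genes passed limma, although 12 had an unadjusted p under 0.05 downward and none upward and 7 passed with the replicate block, and their median was -0.85. Hnrnpa2b1, which has been proposed as a nuclear m6A reader, measured 85.2 and 80.0 FPKM in input and 10.8 and 20.3 FPKM in the RIP (-2.4, limma adjusted p = 0.0631, 0.0125 with the block, 0.0125 to 0.336 over the alternatives). The m6A machinery itself showed no call: none of the 10 writers and erasers, 8 readers and 20 deadenylation and decay genes passed limma, although before adjustment 2, 1 and 0 had a p under 0.05 upward and 2, 2 and 2 downward. With the block 2, 2 and 0 passed, among them the methyltransferase adaptor Rbm15b at 11.3 and 11.5 FPKM in input and 53.0 and 30.1 FPKM in the RIP (1.73, limma adjusted p = 0.0757, 0.0429 with the block, 0.0429 to 0.416 over the alternatives). The mRNA of Ythdf1 measured 6.65 and 6.74 FPKM in input and 17.8 and 8.00 FPKM in the RIP (0.76, limma adjusted p = 0.309), and the RIP replicates differed by more than replicate 2 differed from input. Ythdf2 and Ythdf3 changed by 0.31 and 0.46 (limma adjusted p = 0.641 and 0.547).

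Genes of mTORC1 and its regulators GATOR and Ragulator had 1 of 30 tested members higher and 1 lower (median 0.24). This was 3.33% each way, against 1.07% higher and 2.9% lower of all tested genes. Wdr24, a subunit of GATOR2, measured 1.05 and 0.975 FPKM in input replicates 1 and 2 and 8.83 and 5.35 FPKM in the RIP (1.97 ± 0.39, limma adjusted p = 0.0428). Lamtor2, a subunit of Ragulator, measured 13.5 and 29.1 FPKM in input and 3.86 and 2.68 FPKM in the RIP (-2.31 ± 0.44, limma adjusted p = 0.0418). Of 24 tested potassium channel genes only Kcnj12, an inward rectifier, was called, from 0.244 and 0.533 FPKM to 3.09 and 3.39 FPKM (1.62 ± 0.35). Kcnj12 was 1 of 5 members that passed the filter only through the RIP, and none of the other 19 was called. None of 112 tested solute carriers passed limma. At an unadjusted p under 0.05, 17 were higher and 3 lower, where 13% and 14.8% of all tested genes were. With the replicate block 10 passed, where 14.6% of all tested genes did. Their median was 0.31 without the 15 that passed the filter only through the RIP.

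Of 531 tested pseudogenes, 105 were called lower and none higher, and the median was -0.92. These counts, like those of microRNA loci and longer noncoding RNAs below, keep any genes that passed the filter through only 1 group. The direction of such genes was fixed by the filter, and they were not counted apart. Many carry the names of genes that were lower themselves, such as Rpl17-ps3 and Hmgb1-ps2, and reads cannot be assigned with certainty between such copies. The lowest, Gm28439, a nuclear copy of mitochondrial DNA on chromosome 1, measured 814 and 860 FPKM in input and 2.15 and 24.7 FPKM in the RIP (-6.54 ± 1.20).

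Small nucleolar RNAs (snoRNAs) guide chemical changes of ribosomal and spliceosomal RNA in the nucleus. The box H/ACA members guide pseudouridylation and end in an ACA triplet that lies close to the 3′ end. The called members with the largest change are shown because they moved in opposite directions while sharing this box. The last ACA of each sequence is in capitals, and Gm26165, annotated only as a snoRNA, ends in the same way. Sequences are DNA letters of the GENCODE transcripts, 5′ to 3′.
Snora15: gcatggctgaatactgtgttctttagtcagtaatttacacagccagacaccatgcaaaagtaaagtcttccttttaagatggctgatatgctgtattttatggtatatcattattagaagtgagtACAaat
Snora21: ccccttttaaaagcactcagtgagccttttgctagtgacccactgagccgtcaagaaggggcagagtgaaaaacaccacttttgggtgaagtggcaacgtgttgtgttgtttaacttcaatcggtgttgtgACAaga
Gm26165: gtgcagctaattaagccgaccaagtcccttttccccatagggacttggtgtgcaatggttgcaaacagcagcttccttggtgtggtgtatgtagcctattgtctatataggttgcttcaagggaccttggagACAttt
Snora23: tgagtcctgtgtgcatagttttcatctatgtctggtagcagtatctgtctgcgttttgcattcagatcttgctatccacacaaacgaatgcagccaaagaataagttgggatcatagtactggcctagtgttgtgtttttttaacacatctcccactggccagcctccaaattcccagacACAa
They lie on GRCm38 at chr5:129794546-129794676 (plus strand), chr11:97781639-97781775 (minus strand), chr2:144261589-144261726 (minus strand) and chr7:110046364-110046547 (plus strand). The marked ACA stands 3 bases from the annotated end in Snora15, Snora21 and Gm26165. In Snora23 it stands 1 base from that end and overlaps another ACA, which stands 3 bases from the end.

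Of 27 tested box H/ACA snoRNAs, 3 were higher and 1 lower. Without 3 that passed the filter only through the RIP the median was 0.73 (1.09 over all 27). Snora15 measured 2.26 and 2.00 FPKM in input replicates 1 and 2 and 16.7 and 48.2 FPKM in the YTHDF1 RIP (3.24 ± 0.63, limma adjusted p = 0.0427). Snora21 measured 1.11 and 0.0182 FPKM in input and 6.77 and 18.5 FPKM in the RIP (3.07 ± 0.54), and Gm26165 0.567 and 0.527 FPKM and 10.4 and 10.9 FPKM (2.91 ± 0.33). The third call among the H/ACA members was Snora61, at 1.03 and 0.894 FPKM in input and 5.05 and 6.25 FPKM in the RIP (1.75 ± 0.32). Snora23 went the other way, from 85.8 and 39.5 FPKM to 5.83 and 3.33 FPKM (-3.45 ± 0.56, limma adjusted p = 0.0319). The groups of all 5 were apart, but the replicates of Snora15 and Snora21 differed more than 2-fold in the RIP.

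These snoRNAs lie inside other genes, whose own values are given beside them. Snora15 overlaps an exon of Cct6a, which had a log2 change of -1.07, and Snora21 lies in an intron of Rpl23, which had -1.11. Gm26165 lies in an intron of Snx5 (-0.51) and Snora23 in an intron of Ipo7 (-0.83). Snora61 overlaps an exon of the noncoding host Snhg12 (0.27). None of the 5 hosts passed the test, with limma adjusted p-values of 0.134, 0.151, 0.375, 0.254 and 0.611. Reads that cross a host and a snoRNA could be counted to either, and FPKM of RNAs this short depends on the fragment sizes kept in the library.

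Box C/D snoRNAs, which guide ribose methylation, had no call upward and 1 of 37 downward, 2.7% against 2.9% of all tested genes. In the 26 that passed the filter through both groups none was called. Their median was 0.47, and 6 passed the model-free count upward and 1 downward. The call among the 37 was Snord21, from 11.3 and 27.3 FPKM in input to 0.0484 and 0.0604 FPKM in the RIP (-4.15 ± 0.77, limma adjusted p = 0.0388). It overlaps an exon of Rpl5 (-1.27, limma adjusted p = 0.102). U3, the C/D snoRNA that acts in cleavage of the ribosomal RNA precursor, had the lowest median of the lists shown. Of 9 tested copies 4 were lower and none higher, with a median of -3.67, and their summed level was 1930 and 1519 FPKM in input replicates 1 and 2 and 112 and 99.0 FPKM in the RIP. Rnu3b3 measured 445 and 349 FPKM in input and 14.0 and 19.6 FPKM in the RIP (-4.49 ± 0.45, limma adjusted p = 0.0261), and Rnu3b4, Rnu3b2 and Rnu3a had changes of -4.06, -3.97 and -3.67. The table holds some of these symbols under more than 1 ID, and the copies share sequence, so only their sum is free of the division of reads among them.

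MicroRNA loci gave 4 calls higher and 2 lower among 51 tested. The library kits named in the sources are not made for RNAs as short as mature miRNAs, so the values stand for fragments over the hairpin locus. The mature sequences in RefSeq (GRCm38.p6) are shown for the loci named below to identify them, with the seed, bases 2 to 8, in capitals.
mmu-miR-5133: gCUGGAGCugcggcagcgcag
mmu-miR-8104: cAGGAUGAgguggagugcagcg
Their seeds differ. Mir5133, at chr9:62122518-62122594 within an exon of Glce, measured 3.62 and 0.0574 FPKM in input and 15.8 and 36.9 FPKM in the RIP (3.51 ± 0.76, limma adjusted p = 0.0497), while Glce itself changed by 0.37 (limma adjusted p = 0.636). Mir8104, at chr10:122679315-122679415 within an exon of Ppm1h, fell from 15.3 and 24.3 FPKM to 0.136 and 0.149 FPKM (-4.15 ± 0.33, limma adjusted p = 0.0257), while Ppm1h changed by 0.93 (limma adjusted p = 0.202). The replicates of Mir8104 were close in the RIP, and those of Mir5133 were far apart in the input. Among longer noncoding RNAs, 3 of 200 were higher and 3 lower, where 1.07% and 2.9% of all tested genes were. Peg13, an imprinted noncoding RNA from an intron of Trappc9, measured 12.6 and 17.4 FPKM in input and 70.8 and 83.4 FPKM in the RIP (2.30 ± 0.46, limma adjusted p = 0.0447). Scarna2, a small RNA of Cajal bodies, measured 13.9 and 20.1 FPKM in input and 94.3 and 425 FPKM in the RIP and missed the threshold (3.50, limma adjusted p = 0.0718, 0.0059 with the replicate block, 0.0059 to 0.382 over the alternatives).

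**Figure D4:**
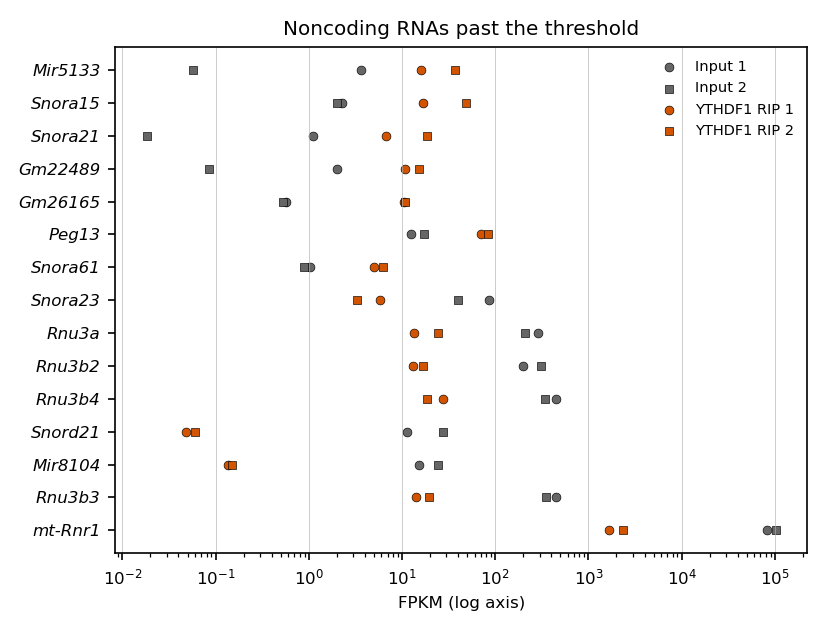
FPKM on a log axis in the 2 input libraries (grey) and the 2 YTHDF1 RIP libraries (orange) for noncoding RNAs that passed the limma threshold, ordered from the largest rise to the largest fall; circles are replicate 1 and squares replicate 2. The 7 RNAs from Mir5133 to Snora61 have both RIP libraries above both inputs, and the 8 from Snora23 to mt-Rnr1 have both below.

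Across the 9482 nuclear protein-coding genes the change followed the G and C content of the transcript. In 5 equal bins of genes by this content, the median log2 change was -0.64 in the lowest bin (median content 42.3%), then -0.23, 0.08 and 0.37, and 0.66 in the highest bin (median content 58.4%). From the lowest bin to the highest, 0, 4, 10, 30 and 55 genes were called higher and 84, 55, 29, 9 and 6 lower. Spearman's rho across genes, which share libraries and depth, was 0.558. The strength of this relation differed between the replicates. In pair 1 the medians ran from -1.08 to 0.89 (rho 0.680), and in pair 2 from -0.24 to 0.43 (rho 0.259). The input replicates also differed along the same axis, with a rho of -0.315 for replicate 1 minus replicate 2, so G and C content also moved with the difference between input libraries, and its part in the RIP difference was not tested.

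Transcript length added to this mostly through the falls. In the shortest of 5 equal bins (median 1248.5 bases) 105 genes were lower and 6 higher, and in the longest bin (median 6784 bases) 3 were lower and 25 higher. The median change ran from -0.33 in the shortest bin to 0.15 in the longest. Here replicate pair 2 carried the relation, with a rho of 0.333 against 0.0526 in pair 1. The called rises had a median length of 3911 bases and the called falls one of 1604 bases, both among nuclear protein-coding genes. Within each bin by G and C content, genes whose longest exon was above the median of the bin had the higher median change. In the richest bin it was 0.91 against 0.43, with 48 and 7 genes called higher. The density of GGACT, a form of the sequence in which m6A is often placed, went with smaller differences, 0.70 against 0.61 in that bin.

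**Figure D5:**
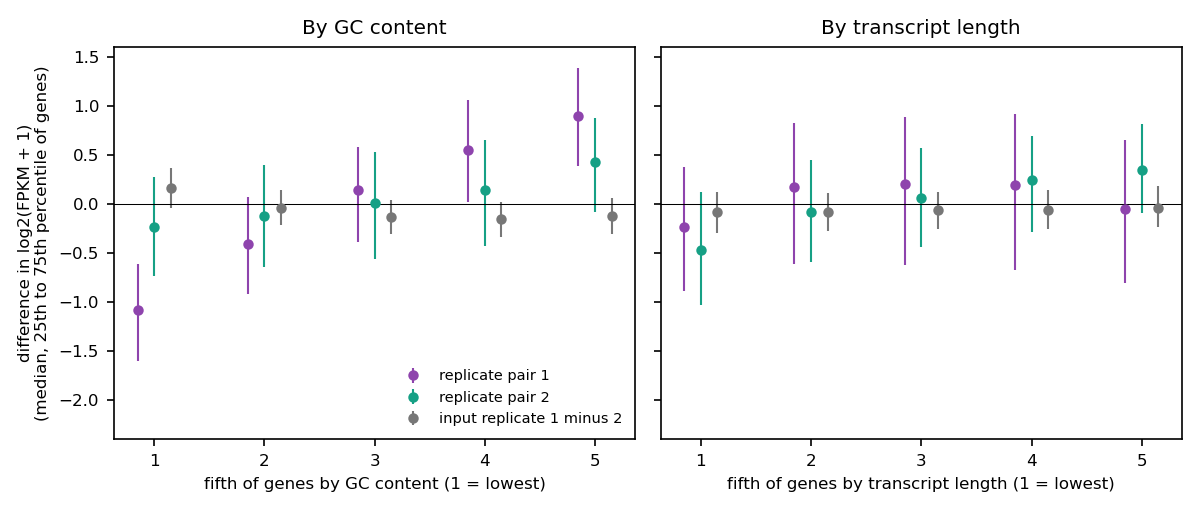
Median difference in log2(FPKM + 1) (points) with the 25th and 75th percentiles of genes (bars) in 5 equal bins of 9482 nuclear protein-coding genes by G and C content (left) and transcript length (right), for replicate pair 1, replicate pair 2 and, as a reference, input replicate 1 minus input replicate 2. The rise with G and C content is steeper in pair 1, from -1.08 to 0.89, than in pair 2, from -0.24 to 0.43.

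When each library was corrected for G and C content and length and the replicate number was kept as a block, 50 of the 99 nuclear protein-coding genes called higher and 110 of the 183 called lower were called again, and all of them kept their direction. The median change of the 99 was then 1.26 and that of the 183 was -1.41. The lists shrank unequally, with both medians taken over all tested members. Of these, 7 of 32 leucine-rich repeat genes, 5 of 24 guidance receptors and 3 of 27 H/ACA snoRNAs had passed the filter only through the RIP. None of the 13 planar polarity genes had. Corrected medians without such members were not made, so the lists are not compared on equal terms. The leucine-rich repeat list moved from a median of 0.96 to 0.89, whereas planar polarity went from 1.16 to 0.45, axon guidance ligands from 0.91 to 0.30, guidance receptors from 0.95 to 0.20, neurexins, neuroligins and adhesion receptors from 1.00 to 0.11, and Wnt transducers from 0.35 to -0.08. On the falling side, the high mobility group genes went from -1.91 to -1.23, cytosolic ribosomal protein genes from -0.86 to -0.37 and complex I genes from -0.70 to -0.28. The H/ACA snoRNAs went from 1.09 to 1.00 and U3 from -3.67 to -3.29.

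The study had picked its YTHDF1 targets from these same libraries, so the following counts are no independent evidence of their direction. Of its 506 RIP targets 330 were tested and 176 lay under 1 FPKM. Of the tested ones 76 were called higher and none lower, but 109 had passed the filter only through the RIP. Among the other 221, 60 were called higher, the median was 1.597 and 134 passed the model-free count. Its 11 candidates, targets whose protein level changed after knockdown of YTHDF1, had 10 tested members, and Dchs1 and the glycerol phosphate acyltransferase Gpat4 were called. Gpat4 measured 3.65 and 4.44 FPKM in input replicates 1 and 2 and 23.2 and 19.5 FPKM in the RIP (2.15 ± 0.40, limma adjusted p = 0.0388). Adcyap1r1, the receptor of the neuropeptide PACAP, measured 4.48 and 8.50 FPKM in input and 27.8 and 60.5 FPKM in the RIP (2.54, limma adjusted p = 0.0639, 0.00757 with the replicate block, 0.00757 to 0.400 over the alternatives). Numbl, a Notch inhibitor of the Numb family, measured 2.11 and 2.35 FPKM in input and 7.02 and 17.0 FPKM in the RIP (1.89, limma adjusted p = 0.0685, 0.0149 with the block, 0.0149 to 0.386 over the alternatives). In both, replicate 2 of the RIP was more than 2-fold above replicate 1.

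Among the other candidates, Dzank1 averaged under 1 FPKM and was not tested, and those that follow did not pass. Camkk2, a calcium-dependent kinase, measured 0.534 and 0.529 FPKM in input replicates 1 and 2 and 0.745 and 2.81 FPKM in the RIP, and the inositol transporter Slc5a3 1.5995 and 1.46 FPKM and 2.07 and 7.51 FPKM. In both only RIP replicate 2 stood well above input, and Camkk2 passed the filter only through the RIP, so its direction was fixed. Dohh, an enzyme that modifies the translation factor eIF5A, measured 1.67 and 1.67 FPKM in input and 3.96 and 4.04 FPKM in the RIP (0.90, limma adjusted p = 0.116), and its replicates lay close together in both groups.

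Lists made in other samples, after knockdown of YTHDF1, come next. Of 122 tested genes whose protein was lower after knockdown, Dchs1 and Gpat4 were higher in the RIP and none lower (median -0.08), and of 184 whose protein was higher, Celsr2 was higher and Gng10 lower (median -0.17). Of the genes whose mRNA was lower after knockdown 85 were tested and none passed limma (median 0.29 in the 72 that passed the filter through both groups). At an unadjusted p under 0.05, 12 were higher and 3 lower, where 13% and 14.8% of all tested genes were. With the block 6 passed, where 14.6% of all tested genes did. Of the genes whose mRNA was higher after knockdown 84 were tested and Hmgn5, Spc25 and Gm13339 were lower (median -0.06 in the 73 that passed the filter through both groups).

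The libraries carried the RNA of granule cells and of some other cells. In bulk samples such as these, fewer cells of a type and less RNA per cell cannot be told apart. Of 10 GC markers 7 were tested and none passed limma, with 1 higher at an unadjusted p under 0.05 and none past with the block. Their summed level was 313 and 432 FPKM in input replicates 1 and 2 and 439 and 287 FPKM in the RIP, so the groups overlapped. Gabra6, Cbln3 and Etv1, of which the GABA receptor subunit Gabra6 marks mature GCs, lay under 1 FPKM in all 4 libraries. Purkinje cell markers summed to 45.5 and 46.5 FPKM in input and 20.1 and 29.4 FPKM in the RIP, and astrocyte and Bergmann glia markers to 297 and 273 FPKM and 188 and 126 FPKM. No marker of either list passed limma, although 2 and 3 had an unadjusted p under 0.05 downward and 1 and 1 passed with the block, and the part of these cells in the differences was not tested. Among 23 tested transcription factors of the GC lineage, Neurod6 was the only call, at 9.98 and 11.2 FPKM in input and 1.62 and 1.25 FPKM in the RIP (-2.25 ± 0.40, limma adjusted p = 0.0375). Of 8 tested markers of GC precursors and the cell cycle none passed limma. Their median was 0.23, with 4 changes above 0 and 4 at or below it, from -2.13 to 2.13. The lowest was Mki67, a marker of dividing cells, at 68.3 and 35.2 FPKM in input and 7.90 and 13.7 FPKM in the RIP (-2.13, limma adjusted p = 0.191).

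Against the YTHDF2 RIP the YTHDF1 RIP showed no gene past the threshold. The limma contrast between the antibodies called 0 of 10639 genes, with 435 at an unadjusted p under 0.05 (4.09%). This fit had no replicate block. With the block, added after seeing the data because the RIP libraries of equal number deviated together, it also called 0 genes, with 742 at an unadjusted p under 0.05. For the 99 nuclear protein-coding genes called higher in the YTHDF1 RIP the median of YTHDF2 RIP minus YTHDF1 RIP was 0.48, against 0.19 over all tested genes. Of the 99 differences 86 were above 0, but the share above 0 over all tested genes was not counted. A p that misses the threshold does not show that the antibodies recovered the same RNAs.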

How the data were processed

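The authors deposited 1 table of FPKM values for 6 libraries (input, YTHDF1 RIP and YTHDF2 RIP, 2 each), made from RNA of dissociated cerebellum with a RIP kit. The methods of the study name STAR, Cufflinks and GRCm38, whereas the submitters' processing notes name Bowtie 0.12.2 with mm8 and mm9, so the origin of the values remains uncertain. Use of strand in counting was not given in the sources read. FPKM keeps no read total, and low values were near whole multiples of 1 fragment in only 36.8% to 44.7% of cases (20% by chance, tolerance 0.1), so depth is unknown and no count test was run.

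Genes that averaged 1 FPKM or more in the 4 compared libraries were tested on log2(FPKM + 1), which understates changes of low genes, with limma 3.58.1 (R 4.3.3) on all 6 libraries (3 residual degrees of freedom, intensity trend, 2-sided, Benjamini-Hochberg over all tested genes). The series text says that each replicate holds input and RIP, so equal numbers were taken as pairs. Deviations from group means correlated at -0.145 between input and YTHDF1 RIP, -0.137 between input and YTHDF2 RIP and 0.68 between the RIPs, and the replicate block is an alternative. Other alternatives changed the pseudocount, filter, scaling, libraries, trend and correction for G and C content and length (loess, span 0.5). Leaving out list members under 1 FPKM in both libraries of a group, and the block in the contrast between antibodies, were chosen after seeing the data. Features came from GENCODE on GRCm38.

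Named genes were the 15 protein-coding and 5 other genes with the largest rise and fall among those called, up to 4 called members of each list (with none called, the 2 most abundant), Ythdf1 to Ythdf3, Dvl1, Wnt5a, the study's candidates (some are not reported here), and the 10 genes with the largest ratio of lowest RIP to highest input library. Host genes of small RNAs, Celsr3, Scarna2, Mki67 and some called genes were added after their values were seen. Members and lists were chosen with earlier results of these data known.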

Additional observations from a re-analysis of the deposited data

How the results depend on the processing

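Against 423 calls (114 higher, 309 lower, 27.0% higher), the 4 libraries alone gave 965 (361 and 604, 37.4% higher), median-of-ratios scaling 844 (251 and 593), scaling to nuclear coding genes 756 (288 and 468, 38.1% higher), the replicate block 1558 (610 and 948, 39.2% higher), and the replicate block with G and C and length correction 744 (313 and 431, 42.1% higher). TPM-like scaling, which moved the median of all genes from 0.01 to 0.45, gave 0 limma calls with 2971 genes at an unadjusted p under 0.05, and no filter gave 0 with 3918. A filter of 5 FPKM gave 192 higher (40.0% of calls), a filter over 6 libraries 69 higher, and a pseudocount of 0.1 gave 182 lower (44.3% of calls higher). Leaving out 1 library gave 0 to 998 calls, 0 to 349 higher and 0 to 649 lower. Of 88 called genes named in the text, 87 lost the call without input replicate 1 and 87 without input replicate 2, 88 without either YTHDF1 RIP library and 0 without either YTHDF2 RIP library, and 0 changed sign under any alternative. The counts of 959 and 1140 genes at least 2 times apart became 444 and 711 with a pseudocount of 1, 328 and 496 at 3 times, and 334 and 508 with a filter of 5 FPKM. The ratio over 2 held for 1214 genes in both pairs and 9477 with no filter. In the replicate block with G and C and length correction, Snx5 (0.0123), which was not called, changed sign. The cause was not tested for any of these. The unknown depth and 2 libraries a group limit every call.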
